A study of Bos taurus with 12 samples.

Results

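The cattle-numbered miRNAs bta-miR-2286 to bta-miR-2489 were followed in granulosa cells of cattle, taken from subordinate (SF) and dominant (DF) follicles. Members were all mature names with a number in that range, whatever their letter or arm suffix, that had at least 1 read in any library. Of the 755 mature names listed in the series, 242 carried such a number, and 99 of them, from 85 precursors, had a read. The other 143 were listed without a read in any of the 12 libraries. The names that were both listed and read ran from miR-2289 to miR-2487.

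Each of the 4 groups, SF at day 3, DF at day 3, SF at day 7 and DF at day 7 of the oestrous cycle, was sequenced as 3 biological replicates. All animals were Simmental heifers whose cycles had been synchronised with a prostaglandin analogue (cloprostenol) and a GnRH analogue (buserelin). Follicles were assigned to SF or DF by diameter, and the cells came from follicular contents that were pooled by follicle size. The study's methods set larger diameter limits for both classes at day 7 than at day 3. Day and diameter limit therefore cannot be told apart in comparisons between the days. The labels do not say which follicles or heifers a library came from, and the study's methods name no more dominant follicles at day 7 than there are libraries of that group. As the labels do not tie replicates to animals, p-values measure the spread between these libraries. Summed over 1 precursor entry per name, the libraries held from 160418 to 405129 reads.

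A miRNA is cut as a short duplex from a hairpin precursor by Drosha and Dicer. One strand, named 5p or 3p after the arm of the hairpin it lies in, is kept in an Argonaute protein and guides it to mRNAs through a short seed near its 5′ end. Numbers are given in the order in which miRNAs are registered, so neighbours in number need not share sequence or function. Most names in this range were first registered from bovine small RNA sequencing, and for most of them no role in the ovary is established.

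Compared with the rest of the miRNAs, these were rarely read. A read was found for 40.9% of the listed names in the range and for 72.9% of the names outside it. The median member had 4 reads in all 12 libraries together, while the 374 names with a read outside the range had a median of 93.5. All members together took 3358 of 3399610 reads, 0.0988%. Among the members, 25 rested on a single read, 41 on 2 to 11 reads, 26 on 12 to 99 reads and 7 on at least 100 reads. The 25 single reads gave no level to compare, and 17 of them lay in DF libraries.

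Reads were concentrated on a few names. miR-2478 alone took 35.2% of the member reads and the 7 members with at least 100 reads took 67.5%. These were miR-2478 (1183 reads), miR-2483-5p (351), miR-2419-5p (233), miR-2484 (147), miR-2387 (133), miR-2411-3p (114) and miR-2440 (105). In the order of all names by total reads, miR-2478 stood at place 114 and miR-2440 at place 191. A read in each of the 12 libraries was found for 11 members, which were those 7 without exception together with miR-2336, miR-2425-5p, miR-2320-5p and miR-2310.

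**Figure D1:**
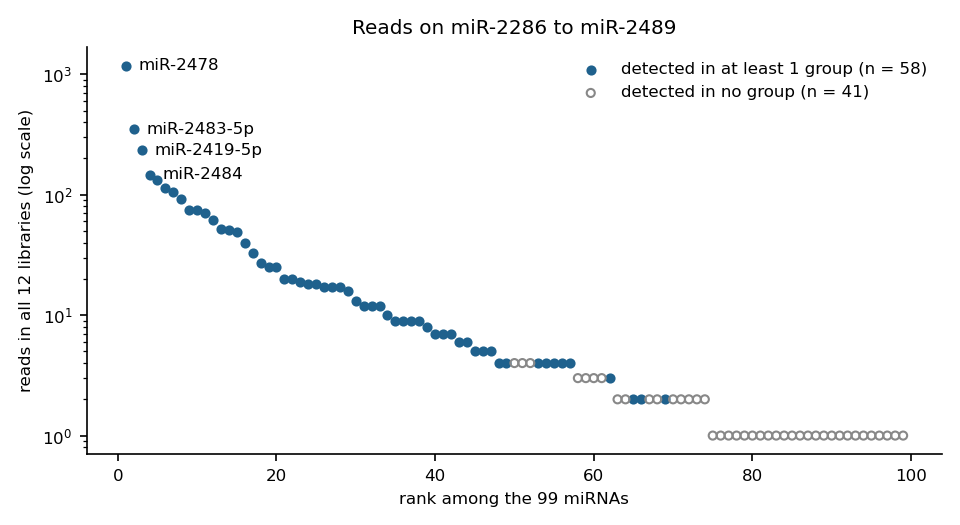
Total reads of each of the 99 members in all 12 libraries (log scale), ordered by rank; filled points are the 58 members detected in at least 1 group and open points the 41 detected in none. The curve drops from 1183 reads for miR-2478 to a run of 25 names with 1 read.

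A miRNA counted as detected in a group if 2 or more of the 3 replicates held a read of it. By that rule 29 members were detected in SF at day 3, 43 in DF at day 3, 33 in SF at day 7 and 35 in DF at day 7. All names of the series gave 296, 318, 314 and 315 in the same order. The counts moved with the rule. With reads scaled to the smallest library they were 20, 23, 22 and 20, and the groups lay within 3 names of each other. All names gave 255, 247, 261 and 271 by that rule. Scaling asks for more reads in a larger library than in the smallest, so the part of depth in the group differences was not tested. Detection at this depth was bounded by 3 reads in a library, a share of 0.000741% to 0.00187%, which covers counting error only.

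Of the 99 members, 16 were detected in all 4 groups, 58 in at least 1 and 41 in none. The 41 had at most 4 reads in all. Another 9 were detected in DF at day 7 alone: miR-2349, miR-2389, miR-2399-5p, miR-2411-5p, miR-2431-5p, miR-2448-5p, miR-2457, miR-2474 and miR-2487. A further 7 were detected in DF at day 3 alone, 2 in SF at day 3 alone and 2 in SF at day 7 alone. Conversely, miR-2320-3p, miR-2323, miR-2332, miR-2339, miR-2376 and miR-2404 were detected in every group other than DF at day 7.

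The summed share of the members in all reads did not separate SF from DF at either day. It was 0.0997% ± 0.0227 (SD, n = 3) in SF and 0.118% ± 0.0217 in DF on day 3, and 0.1001% ± 0.0320 in SF and 0.0774% ± 0.0102 in DF on day 7. The DF libraries at day 7 ran from 0.0686% to 0.0885% and those at day 3 from 0.0942% to 0.137%, without overlap. The SF libraries overlapped each DF group of the same day. This gap rested on miR-2478: without it the DF libraries ran from 0.0515% to 0.0617% at day 7 and from 0.0593% to 0.0802% at day 3 and overlapped. The means without miR-2478 were 0.0616%, 0.0708%, 0.0644% and 0.0572% in the order SF day 3, DF day 3, SF day 7 and DF day 7.

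The DF libraries of day 7 also stood apart in miRNAs that mark cell types. The summed normalized count of 3 gonad and granulosa markers (miR-202, miR-383 and miR-224) ran from 371 to 991 in DF at day 7 and from 2326 to 3806 in the other 3 groups, and miR-383 was at 0 in DF at day 7. That of 4 leukocyte markers (miR-142-5p, miR-142-3p, miR-150 and miR-223) ran from 783 to 8636 in DF at day 7 and from 108 to 705 elsewhere, with miR-142-3p at 0 in both day 3 groups. The pair miR-143 and miR-145, which mark theca, smooth muscle and fibroblasts, summed to 6723 to 14191 in DF at day 7 and to 2206 to 4909 elsewhere. The 3 erythrocyte markers ran from 808 to 2322 in DF at day 7 and from 315 to 1642 elsewhere, the 2 endothelial markers from 130 to 160 and from 61.6 to 221, and the 5 epithelial markers from 0.855 to 3.33 and from 0 to 21.5. The part of these cell types in the results on DF at day 7 was not tested. In such bulk samples fewer cells of a type and less miRNA per cell cannot be told apart. Replicate 2 of DF at day 7 was the smallest library and had the highest leukocyte sum.

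To describe which members differed between follicle classes at each day, and between days in each class, counts were tested with edgeR over all detected names. A member was called at a log2 fold change of at least 1 in size, p of at most 0.05 and an adjusted p (false discovery rate over all names tested) of at most 10%. Levels below are normalized counts, that is reads divided by a library size factor.

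At day 3, no member was called between SF and DF. Of 45 members tested 0 passed, against 5.67% of all 335 names tested (3.88% higher and 1.79% lower in SF), and 2 had an unadjusted p below 0.05 by edgeR and 0 by DESeq2. Those were miR-2483-5p and miR-2332. miR-2483-5p was read at 16.05, 21.5 and 36.6 in SF and at 39.8, 45.9 and 30.3 in DF, with a log2 fold change of -0.73 (SE 0.30) and an edgeR adjusted p of 0.112. The groups overlapped. miR-2332 was read at 8.91, 1.35 and 22.0 in SF and at 2.25, 4.89 and 3.91 in DF, with a log2 fold change of 1.46 (SE 0.64, edgeR adjusted p = 0.148). Leaving out replicate 2 of SF gave 1 call (miR-2332), and leaving out replicate 3 of SF gave 1 (miR-2483-5p). All names gave 6.57% and 5.67% in these fits. The groups of 3 members (6.67%) did not overlap, against 27.8% of all names. The median log2 fold change of the members was -0.39, that of all names tested -0.04. For 8 of the 45 members, 1 group had no read. With these set to the bound that 3 reads over the group allow, the medians were -0.21 and -0.003.

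At day 7, 11 of 47 members tested (23.4%) were called between SF and DF, against 33.4% of all 350 names. Of these, 7 were higher in SF (14.9% of the members, 15.1% of all names) and 4 lower (8.51% and 18.3%). Higher in SF were miR-2332, miR-2344, miR-2404, miR-2446, both arms of mir-2483 and miR-2411-3p. Lower in SF were miR-2411-5p, miR-2425-5p, miR-2389 and miR-2487. The groups of 12 members (25.5%) did not overlap, against 45.7% of all names. The median log2 fold change was 0.34 for the members and -0.05 for all names, and 0.20 and 0 with the 13 members, and 32 names in all, that had no read in 1 group at their bound. The number called fell outside a factor of 1.5 when single libraries were left out, with 7 called without replicate 1 of DF or replicate 1 of SF, 6 without replicate 3 of DF and 5 without replicate 3 of SF. Without replicate 2 of DF 10 were called, 8 of them among the 11. Of all names, 28% to 33.7% were called in the fits that left out a library.

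In DF, 14 of 54 members (25.9%) were called between day 7 and day 3, against 40.3% of all 360 names. Of these, 6 were higher at day 7 (11.1% of the members, 24.4% of all names) and 8 lower (14.8% and 15.8%). The groups of 11 members (20.4%) did not overlap, against 50% of all names. The median log2 fold change was -0.24 for the members and 0.05 for all names, and 0 for both with the 18 members and 43 names without a read in 1 group at their bound. Between 6 and 8 were called without replicate 1 of day 7 (6), replicate 3 of day 3 (7) or replicate 2 of day 3 (8). Without replicate 2 of day 7 13 were called, 12 of them among the 14. Of all names, 33.9% to 40% were called in the fits that left out a library. This comparison shares its DF libraries of day 7 with the one before, so calls made in both are not independent.

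In SF, no member was called between day 7 and day 3. Of 40 members tested 0 passed, against 0.593% of all 337 names, and 4 had an unadjusted p below 0.05 by edgeR and 1 by DESeq2. The 4 were miR-2344, miR-2314, miR-2373-3p and miR-2446, each with a read in all 3 SF libraries of day 7. The groups of 4 members (10%) did not overlap, against 13.9% of all names. The median log2 fold change was 0.08 for the members and 0.03 for all names, and 0.01 and 0.001 with the 4 members and 14 names without a read in 1 group at their bound.

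**Figure D2:**
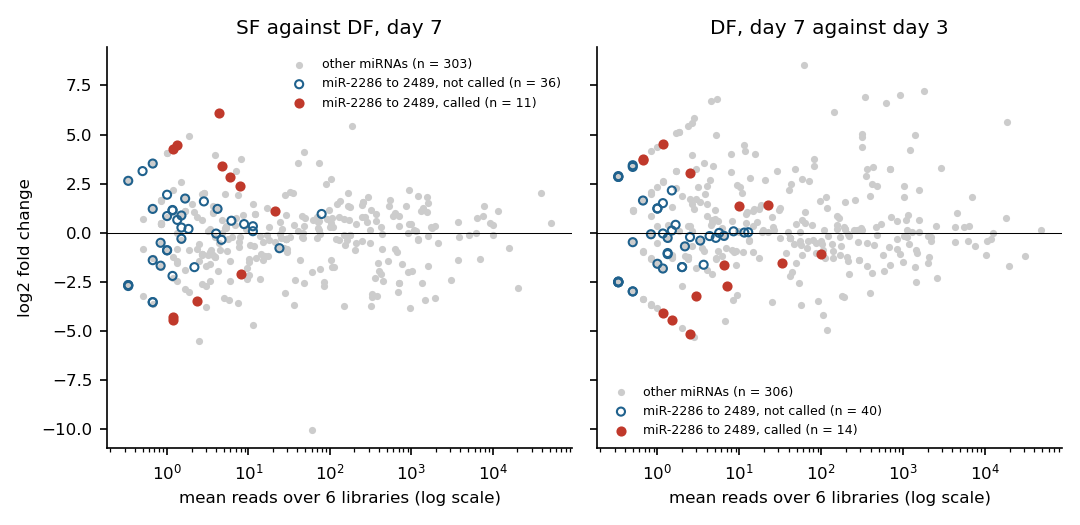
Log2 fold change of each miRNA (vertical axis) against its mean reads over the 6 libraries compared (horizontal axis, log scale), for SF against DF at day 7 and for day 7 against day 3 in DF; grey points are other miRNAs, open points members that were not called and red points members that were called. Of the called members, 10 of 11 and 10 of 14 lie below a mean of 10 reads.

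The most abundant member, miR-2478, was lower in DF at day 7 than in DF at day 3. It was read at 96.3, 99.6 and 106 in SF and at 91.7, 102 and 147 in DF at day 3, and at 159, 58.7 and 85.8 in SF and at 43.6, 71.5 and 50.4 in DF at day 7. The 3 DF libraries of day 7 all lay below the 3 of day 3, and SF at day 7 overlapped them. The group means were 101 ± 5.09 (SD, n = 3) in SF and 113 ± 29.2 in DF on day 3, and 101 ± 52.2 in SF and 55.2 ± 14.6 in DF on day 7. In DF miR-2478 fell by 1.07 on the log2 scale from day 3 to day 7 (SE 0.29, edgeR adjusted p = 0.00870). The fall dropped below the threshold of 1, to 0.90 and 0.89 in size (log2 fold change -0.90 and -0.89), without replicate 3 of day 3 and without replicate 1 of day 7. Between SF and DF at day 7 the log2 fold change of 0.96 (SE 0.39, edgeR adjusted p = 0.0911) lay under the threshold. The precursor of miR-2478 lies within no other gene of the ARS-UCD2.0 annotation.

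Both arms of mir-2483 were lower in DF at day 7 than in SF at day 7 and than in DF at day 3. The precursor lies within the span of TENM1, the gene of a teneurin, a transmembrane protein of cell contacts. miR-2483-5p, whose day 3 levels are given above, was read at 34.7, 24.3 and 26.3 in SF and at 17.1, 18.3 and 6.30 in DF at day 7. Every DF library of day 7 lay below every SF library of that day and every DF library of day 3. The group means were 24.7 ± 10.7 in SF and 38.7 ± 7.84 in DF on day 3, and 28.4 ± 5.55 in SF and 13.9 ± 6.61 in DF on day 7 (SD, n = 3). In DF it fell by 1.54 on the log2 scale between the days (SE 0.41, edgeR adjusted p = 0.00810), in every fit that left out a library. Between SF and DF at day 7 the log2 fold change was 1.13 (SE 0.45, edgeR adjusted p = 0.0797). That call was lost without replicate 1 or 3 of either group at day 7, with adjusted p of 0.122 and 0.178 for DF and of 0.190 and 0.152 for SF, and with another scaling (TMM or library size alone).

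The 3p arm of mir-2483 had fewer reads. miR-2483-3p was read at 5.35, 5.39 and 8.55 in SF and at 9.77, 11.004 and 7.82 in DF at day 3, and at 16.04, 10.1 and 3.90 in SF and at 2.57, 1.66 and 0 in DF at day 7. The DF libraries of day 7 were the lowest of all and overlapped no other group. In DF it fell by 2.73 on the log2 scale (SE 0.76, edgeR adjusted p = 0.0107), in every fit that left out a library. Between SF and DF at day 7 the log2 fold change was 2.83 (SE 0.87, edgeR adjusted p = 0.0322), and the call was lost without replicate 3 of DF (adjusted p = 0.1001) or replicate 1 of SF (0.109).

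miR-2419-5p rose in DF between the days. It was read at 10.7, 10.8 and 25.7 in SF and at 11.3, 13.4 and 10.8 in DF at day 3, and at 25.0, 13.1 and 16.6 in SF and at 32.5, 56.6 and 12.6 in DF at day 7. Replicate 3 of DF at day 7 lay within the range of day 3, so the groups overlapped. The log2 fold change in DF was 1.43 (SE 0.49, edgeR adjusted p = 0.0314), and 0.89 without replicate 2 of day 7, where the call was lost (adjusted p = 0.111). It was also lost without replicate 3 of day 3 (adjusted p = 0.102). The 3 DF libraries of day 7 had leukocyte marker sums of 3110, 8636 and 783 in the same order. Their erythrocyte sums were 1296, 2322 and 808 and their granulosa sums 764, 371 and 991. Those of miR-143 and miR-145 were 9892, 6723 and 14191. The endothelial sums were 130, 145 and 160, and the epithelial sums 0.855, 3.33 and 2.70. In SF at day 7 the leukocyte sums were 184, 705 and 209. The part of these cell types in the rise was not tested. Between SF and DF at day 7 the log2 fold change was -0.78 (SE 0.53, edgeR adjusted p = 0.278). Its precursor lies within no other gene.

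miR-2425-5p, from a precursor within NCKAP5L, was highest in DF at day 7. It was read at 0.891, 1.35 and 3.66 in SF and at 6.01, 4.89 and 3.91 in DF at day 3, and at 4.46, 3.03 and 0.975 in SF and at 16.2, 8.32 and 14.4 in DF at day 7. The DF libraries of day 7 lay above those of every other group, and at day 3 too the DF libraries lay above the SF libraries, although that difference was not called (log2 fold change -1.40, SE 0.75, edgeR adjusted p = 0.245). At day 7 the log2 fold change of SF over DF was -2.09 (SE 0.59, edgeR adjusted p = 0.0217), a call kept in every fit that left out a library. In DF miR-2425-5p rose by a log2 fold change of 1.38 (SE 0.49, edgeR adjusted p = 0.0393), a call lost without replicate 2 or 3 of day 3 or replicate 1 of day 7 (adjusted p of 0.114, 0.117 and 0.180).

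The arms of mir-2411, a precursor within UBAP2L, the gene of a ubiquitin-associated RNA-binding protein, changed in opposite directions. miR-2411-3p was read at 14.3, 2.69 and 20.8 in SF and at 5.26, 11.004 and 6.84 in DF at day 3, and at 4.46, 9.10 and 25.3 in SF and at 1.71, 3.33 and 2.70 in DF at day 7. miR-2411-5p was at 0, 1.35 and 0 in SF and at 0, 1.22 and 0 in DF at day 3, and at 0.891, 0 and 0 in SF and at 1.71, 11.6 and 3.60 in DF at day 7. In DF at day 7 the 3p arm was thus below and the 5p arm above every library of SF at day 7 and of DF at day 3. Raw reads of the 5p arm were few, 2, 7 and 4 in DF at day 7 and at most 2 in any other library.

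Both arms were called at day 7 and between the days in DF. The log2 fold change of SF over DF at day 7 was 2.40 for miR-2411-3p (SE 0.75, edgeR adjusted p = 0.0336) and -3.47 for miR-2411-5p (SE 1.21, edgeR adjusted p = 0.0511). In DF miR-2411-3p fell by 1.65 (SE 0.65, edgeR adjusted p = 0.0588) and miR-2411-5p rose by 3.06 (SE 1.11, edgeR adjusted p = 0.0417). In both comparisons miR-2411-5p entered the test only through DF at day 7, where it was higher, so its p-values are a description. Leaving out 1 library ended each of these 4 calls. For the 3p arm the call at day 7 was lost without replicate 1 or 3 of DF or replicate 3 of SF (adjusted p of 0.107, 0.101 and 0.149), and the call in DF without replicate 2 of day 3 or replicate 1 of day 7 (0.219 and 0.228). For the 5p arm the call at day 7 was lost without replicate 2 of DF or replicate 2 or 3 of SF (0.114, 0.104 and 0.138), and the call in DF without replicate 3 of day 3 or replicate 2 of day 7 (0.119 and 0.147).

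The share of 3p reads was computed per precursor to set the arms against each other within a library, where depth cancels. Both arms were listed, and a read was found on either, for 27 precursors. Reads on both arms were found for 13 of them. More reads lay on the 5p arm in 13 precursors, more on the 3p arm in 13, and as many on each in 1. The share was tested for mir-2411 and mir-2483 alone, whose arms were called above from the same reads. The p-values of these tests are therefore a description, and their adjustment does not cover that choice.

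For mir-2411 the pooled 3p share was 97.2% in SF (95% exact binomial interval 85.5% to 99.9%) and 94.1% in DF (80.3% to 99.3%) at day 3, and 97.6% in SF (87.1% to 99.9%) and 35.0% in DF (15.4% to 59.2%, 7 of 20 reads) at day 7. The intervals cover counting error only, since reads without molecular identifiers are not independent molecules. By library the share was 50.0%, 22.2% and 42.9% in DF at day 7, and at least 66.7% in each other library. The mean was 38.4% ± 14.4 in DF and 94.4% ± 9.62 in SF at day 7, and 96.7% ± 5.77 in DF at day 3 (SD, n = 3). DF at day 7 did not overlap SF at day 7 or DF at day 3, with a 2-sided exact permutation p of 0.1 in each case, the smallest that 3 against 3 libraries allow, and 0.267 after Benjamini-Hochberg adjustment over the 8 arm comparisons made.

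For mir-2483 the 5p arm led in every group. The pooled 3p share was 21.0% in SF and 19.7% in DF on day 3 (interval for DF 14.4% to 25.9%), 26.2% in SF at day 7 (18.7% to 35.0%) and 9.52% in DF at day 7 (2.66% to 22.6%). By library it was 13.0%, 8.33% and 0% in DF at day 7, the last of which rests on 0 of 7 reads, and 31.6%, 29.4% and 12.9% in SF at day 7. These 2 groups overlapped (2-sided exact permutation p = 0.2, adjusted 0.4). The 3 DF libraries of day 3, at 19.7%, 19.4% and 20.5%, lay above those of DF at day 7 (exact permutation p = 0.1, adjusted 0.267).

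**Figure D3:**
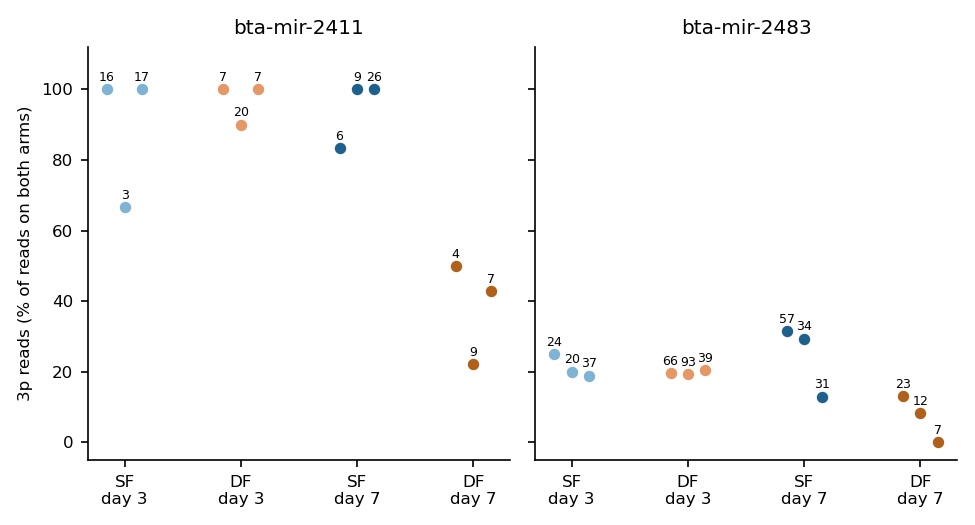
Share of 3p reads in the reads of both arms (%) for each library of mir-2411 and mir-2483, with the number of reads on both arms printed at each point. For mir-2411 the 3 DF libraries of day 7 lie at 22.2% to 50.0% and every other library at 66.7% or more.

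The other precursors with 20 or more reads kept to 1 arm or to a mixture. No 3p read was found for mir-2419 among 233 reads, which allows a share of up to 1.57% (exact binomial), nor for mir-2299 among 62. mir-2425 had 1 3p read of 75. The 3p share was 25.0% of 68 reads for mir-2320 and 62.3% of 53 reads for mir-2313, a precursor within GRAMD1B, and 20 of 25 reads lay on the 3p arm of mir-2431. The 3p share ran from 14.3% to 32.1% between groups for mir-2320 and from 50.0% to 75.0% for mir-2313. For mir-2431 the 3p arm held 6 of 7 reads in SF and 5 of 5 in DF at day 3. At day 7 it held 5 of 5 in SF and 4 of 8 in DF. For each of these precursors the intervals overlapped in every pair of groups.

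A further 4 members were read in other groups but had no read in DF at day 7, or nearly none. Each entered the comparisons in which it was called only through the group where it was higher, so these p-values are a description. miR-2332, from a precursor within UTP6, the gene of a factor of ribosomal RNA processing, had 10, 1 and 18 reads in SF and 3, 8 and 4 in DF at day 3, and 2, 4 and 20 in SF and 0, 0 and 0 in DF at day 7. Set against the 3 reads over the group that a count of 0 allows, miR-2332 was at least 7.58-fold higher in SF than in DF at day 7 (edgeR adjusted p = 0.0258) and at least 4.02-fold higher in DF at day 3 than at day 7 (edgeR adjusted p = 0.0109). Such a bound covers counting error in the group without reads only. It takes the reads of the other group as counted and leaves out the spread between replicates. The fits that left out a library kept both calls of miR-2332, but several of the bounds were lower. At day 7, where 20 of the 26 SF reads lay in replicate 3, the bound was 2.71-fold without that replicate, 4.64-fold without replicate 1 of DF and 4.47-fold without replicate 3 of DF. Between the days in DF it was 2.46-fold and 2.37-fold without replicate 1 and replicate 3 of day 7.

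miR-2404, for which the 2 listed precursors had the same counts, had 9, 0 and 4 reads in SF and 3, 3 and 1 in DF at day 3, and 2, 1 and 4 in SF and 0, 0 and 0 in DF at day 7. It was at least 2.04-fold higher in SF than in DF at day 7 (edgeR adjusted p = 0.0534) and at least 1.88-fold higher in DF at day 3 than at day 7 (edgeR adjusted p = 0.0569). miR-2446, from a precursor within HELQ, a DNA helicase gene, had 1, 0 and 0 reads in SF and 0, 6 and 3 in DF at day 3, and 2, 4 and 2 in SF and 0, 0 and 0 in DF at day 7. It was at least 2.33-fold higher in SF than in DF at day 7 (edgeR adjusted p = 0.0376) and at least 2.41-fold higher in DF at day 3 than at day 7 (edgeR adjusted p = 0.0751). With 7 to 9 reads per group, each of these 4 calls was lost in 2 or 4 of the 6 fits that left out a library, where the adjusted p was 0.104 to 0.234. For miR-2404 these were the fits without replicate 1 or 3 of DF or of SF at day 7, and in DF without replicate 1 or 2 of day 3 or replicate 1 or 3 of day 7. Its bound at day 7 was 1.25-fold and 1.20-fold without replicate 1 and 3 of DF, and none could be set without replicate 3 of SF, where 3 reads were left. In DF it was 1.15-fold and 1.11-fold without replicate 1 and 3 of day 7. For miR-2446 they were those without replicate 1 of DF or replicate 2 of SF at day 7, and in DF without replicate 2 or 3 of day 3 or replicate 1 or 3 of day 7. Without replicate 1 and 3 of DF at day 7 its bound was 1.43-fold and 1.38-fold against SF, and 1.48-fold and 1.42-fold between the days. None could be set in DF without replicate 2 of day 3, where 3 reads were left.

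miR-2346, from a precursor within ASPSCR1, had 2, 2 and 1 reads in SF and 3, 9 and 5 in DF at day 3, and 0, 2 and 0 in SF and 0, 1 and 0 in DF at day 7. In DF it fell by 3.24 on the log2 scale (SE 1.11, edgeR adjusted p = 0.0326) and the groups did not overlap. The call was lost without replicate 2 of day 3 (adjusted p = 0.102) or replicate 1 of day 7 (0.160).

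miR-2344 was the member that stood out in SF at day 7. Its precursor lies within TBCD, the gene of a tubulin folding cofactor. It had 0, 1 and 1 reads in SF and 0, 4 and 6 in DF at day 3, and 11, 8 and 7 in SF and 0, 1 and 1 in DF at day 7. The normalized counts of SF at day 7, 9.80, 8.09 and 6.82, lay above every other library, the next being replicate 3 of DF at day 3 at 5.86. Between SF and DF at day 7 the log2 fold change was 3.40 (SE 0.80, edgeR adjusted p = 0.00854). That call was kept in every fit that left out a library and in every other alternative run that tested miR-2344. With 10 reads asked of 3 or more libraries it was not tested. Between the days in SF it was 3.27 (SE 0.82), which did not pass (edgeR adjusted p = 0.111). In DF the log2 fold change between the days was -1.74 (SE 1.25, edgeR adjusted p = 0.295).

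**Figure D4:**
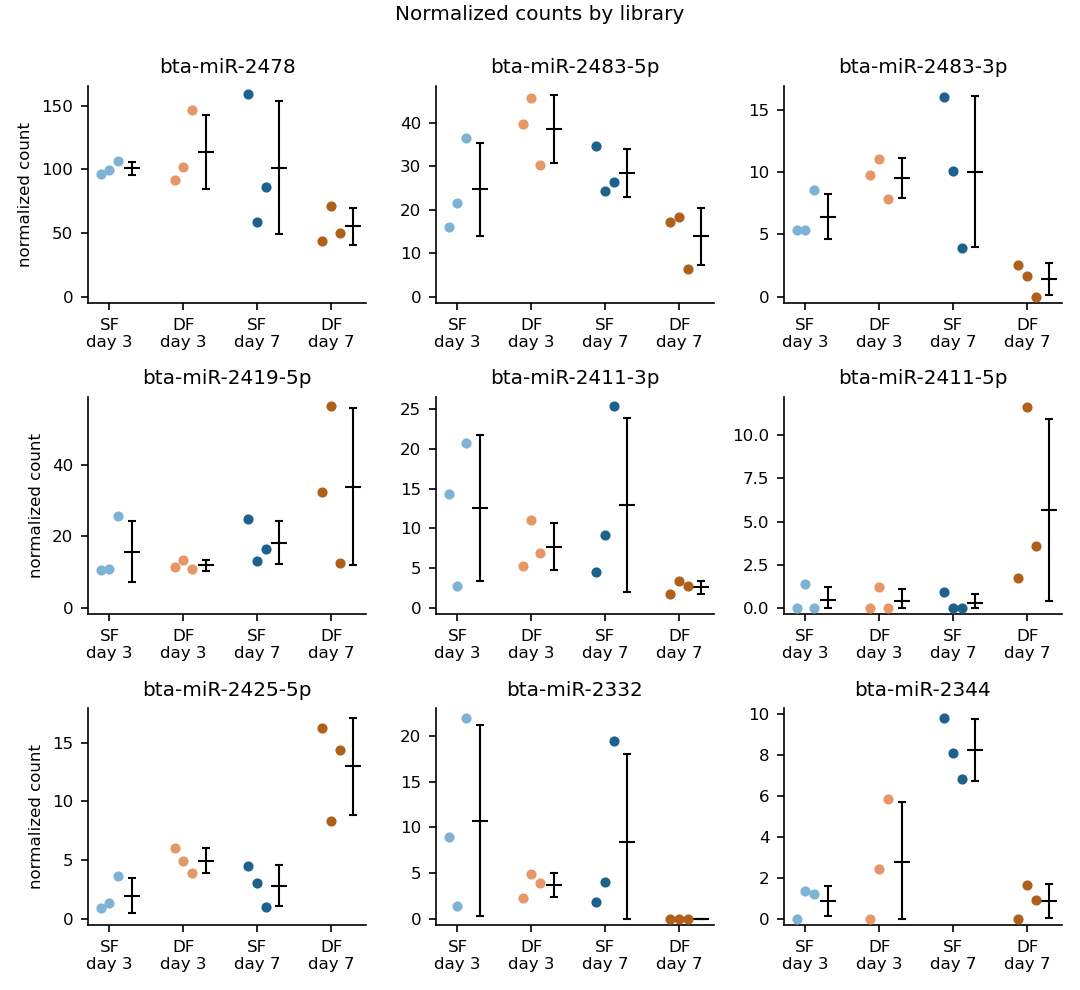
Normalized counts of 9 members in each of the 12 libraries, with 1 point per library, 3 libraries per group, and the mean and SD (bar, drawn down to 0 at most) to the right. The DF libraries of day 7 lie lowest for miR-2483-3p and miR-2332, below SF at day 7 and DF at day 3 for miR-2483-5p, and highest for miR-2425-5p, and SF at day 7 lies highest for miR-2344.

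Another 4 members, with few reads, were called higher in DF at day 7. All 4 were detected in DF at day 7 alone, so they entered the test only through the group where they were higher, and their p-values are a description. miR-2389, from a precursor within the spans of C25H7orf50 and of GPR146, a G protein-coupled receptor gene, had 1, 1 and 5 reads in DF at day 7 and 0 in each of the other 9 libraries. With these 7 reads taken as counted, it was at least 2.67-fold higher than in SF at day 7 (edgeR adjusted p = 0.0603). Against DF at day 3 it was at least 2.90-fold higher (edgeR adjusted p = 0.0321). The first of these calls was lost in 5 of 6 fits that left out a library (adjusted p from 0.103 to 0.175) and the second without replicate 3 of day 7 (0.157). That library held 5 of the 7 reads, and with the 2 reads left no bound could be set. The first bound was 1.72-fold without replicate 3 of SF, and the second 1.87-fold and 1.71-fold without replicate 1 and 2 of day 3. miR-2487 had 1, 4 and 2 reads in DF and none in SF at day 7, and 3, 0 and 0 in SF and 0, 2 and 0 in DF at day 3. It was at least 2.67-fold higher in DF than in SF at day 7 (edgeR adjusted p = 0.0727), which was lost in 5 of 6 fits (adjusted p from 0.108 to 0.149). The bound was 1.72-fold without replicate 3 of SF, and none could be set without replicate 2 of DF, where 3 reads were left.

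miR-2431-5p had 1, 0 and 3 reads and miR-2448-5p 2, 0 and 2 reads in DF at day 7. Neither had a read in DF at day 3 or SF at day 7, and each was called in DF between the days at a bound of at least 1.66-fold (edgeR adjusted p = 0.0931 and 0.0853). Both calls were lost when no filter on low counts was used, and in 5 of 6 fits that left out a library (adjusted p from 0.158 to 0.332). Without replicate 1 or 3 of day 7 no bound could be set, and without replicate 1 and 2 of day 3 it was 1.07-fold and 0.977-fold. The other arms, miR-2431-3p with 20 reads in all and miR-2448-3p, which was detected in no group, were not called.

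A further 3 members had reads in all 3 libraries of 1 group and none in another without a call in any of the 4 comparisons. miR-2314, from a precursor within TEAD1, a transcription factor gene of the Hippo pathway, had 0, 0 and 0 reads in SF and 1, 2 and 0 in DF at day 3, and 3, 1 and 4 in SF and 0, 1 and 1 in DF at day 7. miR-2367-5p had 0, 0 and 0 reads in SF and 3, 1 and 1 in DF at day 3, and 1, 0 and 2 in SF and 0, 1 and 0 in DF at day 7. miR-2373-3p had 0, 0 and 0 reads in SF and 1, 0 and 1 in DF at day 3, and 1, 1 and 2 in SF and 0, 0 and 0 in DF at day 7. The edgeR adjusted p of miR-2314 between the days in SF was 0.231, and that of miR-2373-3p between SF and DF at day 7 was 0.101.

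Several of the better-read members were not called in any comparison. miR-2484 was read at 14.4 ± 3.54 in SF and 10.1 ± 3.19 in DF on day 3, and at 12.3 ± 4.49 in SF and 10.1 ± 1.53 in DF on day 7 (SD, n = 3), with every pair of groups overlapping. miR-2387, from a precursor within GTF2IRD1, was at 7.74 ± 3.46, 10.5 ± 4.34, 10.9 ± 1.75 and 10.2 ± 7.61 in the same order, and miR-2440, within the ribosomal protein gene RPL3, was at 8.45 ± 2.03, 7.18 ± 0.659, 10.004 ± 4.52 and 7.81 ± 4.16. For miR-2484 the log2 fold change was 0.34 (SE 0.45) between SF and DF at day 7 and 0.01 (SE 0.45) between the days in DF.

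Almost all calls rested on few reads. The mean over the 6 libraries compared was below 10 reads for 10 of the 11 members called at day 7 and for 10 of the 14 called in DF. Members that passed the filter on low counts only through the group where they were higher had to differ in detection, so their p-values are a description. Of the 11 and 14 calls, 6 and 8 were of such members. These were miR-2332, miR-2404, miR-2446, miR-2389, miR-2411-5p and miR-2487 at day 7, and miR-2389, miR-2411-5p, miR-2431-5p, miR-2448-5p, miR-2332, miR-2346, miR-2404 and miR-2446 in DF. When a miRNA had to reach 10 reads in 3 or more of the 6 libraries to be tested, 5 members remained at day 7, of which 1 was called, against 45.2% of all names that passed. In DF 5 remained, of which 3 were called, against 48.2% of all names that passed. At day 3, 6 remained and 0 were called, against 6.42% of all names that passed, with 1 at an unadjusted p below 0.05 by edgeR. With DESeq2 in place of edgeR 7 members were called at day 7, without miR-2389, miR-2404, miR-2446 and miR-2487, and 8 in DF, without miR-2389, miR-2404, miR-2411-3p, miR-2431-5p, miR-2446 and miR-2448-5p. Of all names, DESeq2 called 29.7% at day 7 and 34.2% in DF.

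A difference between the follicle classes was set against the other day in an interaction test over all 12 libraries. It asks whether the log2 difference of SF over DF differed between day 7 and day 3, in either direction. Of 58 members tested 5 (8.62%) were called in either direction, against 26.5% of all 378 names. All 5 had a positive value, and the calls of all names were not split by sign. The 5 called were miR-2344, miR-2373-3p, miR-2446, miR-2483-3p and miR-2483-5p. Of them, miR-2373-3p and miR-2446 passed the filter on low counts only through SF at day 7 and DF at day 3, the groups that raise the value.

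The sites of the precursors were looked up by name in the RefSeq genes of ARS-UCD2.0, a later assembly than the UMD 3.1 genome that the reads were mapped to. Of 87 precursors, 85 were matched. Of these, 73 (85.9%) lay within the span of a protein-coding gene, against 241 of 397 (60.7%) precursors of the names with a read outside the range. Spans hold exons and introns alike and these were not separated. The members miR-2319a and miR-2319b overlap each other within CKAP5 and shared their only read, so they cannot be told apart. miR-2312 overlaps MIR2284J, and miR-2443, with 25 reads, lies within 10000 bases of MIRLET7A-3 and MIRLET7B.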

How the data were processed

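The 12 granulosa cell libraries were made with the TruSeq Small RNA protocol and sequenced on an Illumina HiSeq. According to the study's methods, base calls came from CASAVA 1.8.0, reads were trimmed with cutadapt, and known miRNAs were quantified with miRDeep2 on UMD 3.1 and miRBase. The deposited values are raw read counts per mature name and precursor, 1 table per library, with no normalization by the authors; a name with several precursors has an entry for each. For each mature name the precursor entry with most reads in the 12 libraries together was kept.

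Members and lists were chosen with earlier results of these data known. Counts were tested with edgeR 4.0.16 (R 4.3.3; quasi-likelihood F test, relative log expression factors, prior count 0.125) on the 6 libraries of each comparison and on all 12 for the interaction, over names read in 2 or more of 3 replicates of either group. P-values were adjusted by Benjamini-Hochberg over all names tested. Standard errors were derived from the F statistic. Normalized counts are counts divided by DESeq2 1.42.0 size factors over 12 libraries. Arm shares of mir-2411 and mir-2483 alone were compared by exact permutation tests with 2-sided p. The scripts were tested on simulated data.

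Members named in the text were those called in any test, those with a mean of at least 10 normalized counts, both arms of a precursor where each had a read and at least 1 was detected, those with reads in all 3 libraries of 1 group and none in another, and those with identical counts. These came to 38. Others were named for detection or total reads. The members miR-2349 and miR-2399-5p had identical counts, with 2 reads each, in 2 libraries of DF at day 7. Replicates of a group differed by 10.2 to 128 times the sampling variance, so each was taken as a separate library. Mature sequences were not used here.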

Additional observations from a re-analysis of the deposited data

Results flagged for a closer look

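By the interaction test of edgeR over 12 libraries, 5 of 58 members (8.62%) were called, against 26.5% of all 378 names. For these 5 the difference between SF and DF was called as unlike at the 2 days. The value is the log2 difference of SF over DF at day 7 minus that at day 3. It was 3.34 for miR-2483-3p (SE 0.95, adjusted p = 0.0136) and 1.74 for miR-2483-5p (SE 0.55, adjusted p = 0.0270), the arms of 1 precursor, both of which had a negative SF over DF difference at day 3 (-0.64 and -0.73) and a positive one at day 7 (2.83 and 1.13). It was 4.97 for miR-2344 (SE 1.53, adjusted p = 0.0230), with -1.67 at day 3 and 3.40 at day 7. It was 6.78 for miR-2446 (adjusted p = 0.0262) and 5.97 for miR-2373-3p (adjusted p = 0.0918). The fitted values of the last pair depend on the prior count, since miR-2446 had no read in DF at day 7. miR-2373-3p, with 6 reads in all, had none there or in SF at day 3. Both members were detected only in SF at day 7 and DF at day 3, the groups that raise the value. They entered the test only through those groups, so their p-values are a description. The fits that left out a library tested the same names as the full fit. The interaction of miR-2483-3p, miR-2483-5p, miR-2344 and miR-2446 was called in each of the 12 fits that left out a library, while that of miR-2373-3p was called in 2 of them, with an adjusted p of 0.115 to 0.186 in the other 10. The DF libraries of day 7 enter all 5 values and had the lowest granulosa and highest leukocyte marker sums, whose part was not tested.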

How the results depend on the processing

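Of the 641 alternative values of 43 results, 485 kept their call or stayed near the reported value. For counts this meant within 1.5 times and for shares within 1 SD. Only the 30 calls have a direction, and none was reversed. Where 1 of 2 groups compared had no read, the direction could not reverse. Members detected in SF day 3, DF day 3, SF day 7 and DF day 7 numbered 17, 25, 21 and 17 with a read asked of all 3 replicates, 57, 65, 63 and 64 with 1 replicate, and 12, 15, 11 and 9 with at least 5 reads. With reads scaled to the smallest library the 2 DF groups fell to 23 and 20. The summed share was 0.0751%, 0.0885%, 0.0746% and 0.0570% with precursors summed, and 0.0616%, 0.0708%, 0.0644% and 0.0572% without miR-2478. Members called at day 7 were 7 with DESeq2, 1 with at least 10 reads in at least 3 libraries, 6 at a false discovery rate of 5% and 5 to 10 with 1 library left out. Of all names, 29.7%, 45.2%, 28.9% and 28% to 33.7% were called in the same order. In DF the members called were 8, 3, 9 and 6 to 13, against 34.2%, 48.2%, 35.3% and 33.9% to 40% of all names. The interaction gave 3 of 9 members with at least 10 reads, against 43.6% of all names. It gave 4 to 8 with 1 library left out, against 23.8% to 28.0% of all names. The 8 were called without replicate 2 of DF at day 7. At day 3, 1 was called without a filter and with entries as listed, and 0 to 1 with 1 library left out. All names gave 4.94%, 7.46% and 2.99% to 6.57% in the same order. In SF between the days 1, miR-2344, was called with TMM, without a filter, with entries as listed and with the replicate block, and 0 to 1 with 1 library left out. All names gave 0.890%, 2.80%, 2.97%, 2.08% and 0% to 5.93% in the same order. The correlation of same-numbered deviations over 185 miRNAs was between -0.12 and 0.14 and never above 0.1 in all 3 pairs. Between SF and DF at day 7 it was 0.0997, 0.0847 and 0.126. Such correlations cannot show whether same-numbered libraries came from the same heifers, which the labels do not give. With the replicate block 0, 9, 10 and 1 members were called in the comparisons at day 3, at day 7, in DF and in SF, and 7 in the interaction. All names gave 4.48%, 32.9%, 38.1%, 2.08% and 28.0% in the same order. Of the 30 calls, 10 were kept in every fit that left out a library. In the other alternative runs, 17 were kept in every run that tested the member. Most called members were not tested in the run with at least 10 reads in at least 3 libraries. That run kept 1 of the 11 calls at day 7, 3 of the 14 in DF and 2 of the 5 of the interaction. The cause of the lost calls was not tested, other than that fewer names were tested at 10 reads.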
